A study of Mus musculus with 8 samples.

Results

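The genes described here carry the symbols of subunits of the mitochondrial respiratory chain, of ATP synthase and of cytochrome c, and they are split by the genome that holds them. The nuclear set was taken by symbol (Ndufa, Ndufb, Ndufc, Ndufs and Ndufv genes, Sdha to Sdhd, Uqcr genes, Cyc1, Cycs, the Cox genes numbered 4 to 8 and Atp5 genes, without symbols that carry -ps). It was set beside the 13 messenger RNAs of the mitochondrial genome. A gene had to reach 10 counts in at least 3 columns of the table. This left 95 genes of the 18187 in the table, 82 nuclear and 13 mitochondrial, and all 95 also passed the filter of the statistical test. The annotation (GENCODE M21) gives 4 of the 82 nuclear members, Cox6c2, Ndufa11b, Ndufb4c and Ndufs6b, as processed pseudogenes, and they were kept in the counts because the symbols matched. Of 86 nuclear symbols, 4 fell under the count minimum and are described below with the isoforms. Just inside the minimum stood Ndufa5, with 14 counts at most in a library, and just outside it stood Cox4i2, with 19 counts at most but 2 libraries at 10 or more.

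The samples were bulk RNA libraries that the labels call neutrophils, tied to tumors of B16, a mouse melanoma line. One group of 3 libraries carries the treatment label aOX40 (replicates 1 to 3), an antibody against the T cell costimulatory receptor OX40, and the other group of 5 carries the label IgG (replicates 2 to 6). The labels give no genotype, strain, age, dose or time, do not say how the cells were isolated (800 ng of total RNA went into each library), and do not say whether each library came from its own animal. The p-values therefore speak only to how these 8 libraries vary, and that variation may be technical.

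The respiratory chain passes electrons from NADH (complex I) and succinate (complex II) through ubiquinone, complex III and cytochrome c to oxygen at complex IV, and the proton gradient it builds drives ATP synthase (complex V). Complexes I, III, IV and V are built from subunits of both genomes, so that the nucleus and the mitochondrion have to supply matched parts, while complex II and cytochrome c are wholly nuclear. The mitochondrial messenger RNAs are cut from long transcripts that run around a circular genome, and mt-Nd6 alone is read from the light strand. Mature neutrophils are known to rely mainly on glycolysis and to hold few mitochondria.

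The libraries held 69629973 to 73480508 counts in aOX40 and 52682234 to 63238110 in IgG, so depth and group went together. Levels are given as CPM, the usual counts-per-library scale, with library sizes adjusted by TMM factors. The 10 neutrophil markers summed to between 22196 and 27697 CPM in aOX40 and between 22776 and 32759 CPM in IgG. Macrophage and monocyte markers (9 of 10 listed) summed to 548 to 789 CPM in aOX40 and 376 to 726 CPM in IgG, and 4 erythroid hemoglobin genes to 97.4 to 849 CPM and 8.11 to 509 CPM. Fibroblast and pericyte markers (3 of 6) summed to 1.22 to 3.63 CPM in aOX40 and 3.45 to 32.4 CPM in IgG. Endothelial markers (1 of 3) came to 3.23 to 5.78 CPM in aOX40 and 5.46 to 27.5 CPM in IgG. Melanoma markers (7 of 7) reached at most 15.4 CPM in any library, dendritic cell markers (4 of 6) 6.11 CPM, T and NK cell markers (5 of 9) 3.70 CPM and B cell markers (1 of 4) 0.861 CPM. The listed markers without a row were not analysed here. No marker gene that was tested passed, and their part in the values below was not tested. In bulk RNA, fewer cells of a type and less RNA per cell cannot be told apart.

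Each of the 13 mitochondrial messenger RNAs had a higher mean level in aOX40 than in IgG, while the nuclear genes lay on both sides of 0. The median log2 fold change was 0.76 over the 13 mitochondrial genes and 0.09 over the 82 nuclear genes, against 0.05 over all 13278 genes tested. In edgeR's quasi-likelihood test with Benjamini-Hochberg adjustment over all genes, 1 nuclear gene fell (Cycs) and none of the other 94 genes passed an adjusted p of 0.05. Of all genes tested, 2.41% passed (320 genes), 0.821% higher (109) and 1.59% lower (211). At an unadjusted p below 0.05 there were 8 of the 13 mitochondrial and 11 of the 82 nuclear genes, against 17.8% of all genes. The 13 mitochondrial genes share long transcripts and libraries, so they do not count as independent genes. A second dispersion setting of the same tool (legacy FALSE) called 2.64% of all genes higher and 3% lower. With it Cycs and Cox5b fell and Atp5a1, mt-Nd4 and mt-Cytb rose. With DESeq2 Cox7c fell too, and mt-Co3 and mt-Atp6 were among the further genes that rose, where DESeq2 called 3.77% of all genes higher and 7.02% lower. With limma voom (2.52% higher and 2.93% lower) the members called were those of the legacy FALSE setting. With transcript length correction (1.8% of genes lower) Cycs and Cox5b fell, and with GC correction (1.79% lower) Cycs fell. Without aOX40 replicate 1 Cycs and Cox5b fell, where 44 of all 14238 genes rose and 112 fell. Without IgG replicate 4 Cycs did not pass and mt-Cytb and mt-Nd1 rose, where 74 of all 13000 genes rose and 113 fell. With any 1 of aOX40 replicates 2 and 3 and IgG replicates 2, 3, 5 and 6 left out, or with no filter on low counts, no member passed. Without aOX40 replicate 2 or 3 this says nothing about the members, as 0 genes of the whole table passed. Without these IgG libraries 36 to 157 genes passed, and with no filter 172. The mitochondrial median lay between 0.64 and 0.90 with any 1 library left out. Scaling by total counts alone moved the median of all genes from 0.05 to 0.35, the nuclear median to 0.38 and the mitochondrial median to 1.07, and the share of higher among all calls from 34.1% to 71.1% (2.06% of genes higher and 0.836% lower). Under it Atp5a1, mt-Atp6, mt-Co3, mt-Cytb and mt-Nd4 rose, and Cycs did not pass.

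Among the mitochondrial genes of complex I, which encode membrane subunits of the proton pump, mt-Nd4 (chromosome M, 10167 to 11544 on mm10) stood at 77.0, 70.0 and 59.3 CPM in aOX40 replicates 1 to 3 and at 42.5, 36.2, 48.2, 36.7 and 34.7 CPM in IgG replicates 2 to 6. The groups did not overlap, and the log2 fold change was 0.79 with an SE of 0.18 (edgeR, adjusted p = 0.0601). For mt-Nd5 the aOX40 libraries lay between 29.3 and 30.1 CPM and the IgG libraries between 11.9 and 27.2 CPM. For mt-Nd2 they lay between 13.02 and 17.3 CPM and between 7.10 and 12.9 CPM. Neither of these pairs overlapped. The values of mt-Nd1 were 43.0, 45.8 and 50.3 CPM in aOX40 and 20.2, 25.7, 48.3, 23.1 and 19.6 CPM in IgG, so that IgG replicate 4 alone reached into the aOX40 range. The light-strand gene mt-Nd6 had the smallest log2 fold change of the 13 (0.42), at 3.27 ± 0.64 CPM (SD, n = 3) against 2.44 ± 1.13 CPM (SD, n = 5). Its counts came to 0.220% to 0.430% of those of the 12 heavy-strand messenger RNAs in aOX40 and 0.217% to 0.445% in IgG, so the groups overlapped. mt-Nd3 and mt-Nd4l stayed below 1 CPM in every library.

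mt-Cytb (chromosome M, 14145 to 15288) encodes cytochrome b, the mitochondrial subunit of complex III. It stood at 107, 129.9 and 115 CPM in aOX40 and at 48.6, 62.5, 92.5, 48.0 and 52.8 CPM in IgG. All 3 aOX40 libraries lay above all 5 IgG libraries, and the log2 fold change was 0.95 with an SE of 0.24 (edgeR, adjusted p = 0.0778), the largest of the 13 in this fit.

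The mitochondrial genes of complex IV encode its catalytic core, and mt-Co1, whose product holds the oxygen-reducing center, had the highest level per length of the 13, at 333 CPM per kb in aOX40 and 231 CPM per kb in IgG. In CPM it stood at 570.2, 579 and 392.1 CPM in aOX40 and at 363, 299.97, 444, 378 and 298 CPM in IgG, where aOX40 replicate 3 lay below IgG replicate 4. mt-Co1 made up 42.9% to 48.3% of the counts of the 13 genes in aOX40 and 47.8% to 54.0% in IgG. mt-Co3 stood at 112, 109.9 and 82.5 CPM against 54.4, 46.9, 79.5, 61.2 and 42.8 CPM, without overlap (log2 fold change 0.83, SE 0.23, adjusted p = 0.0967, edgeR). mt-Co2 was at 55.5 ± 9.44 CPM against 34.7 ± 9.34 CPM, with an overlap in IgG replicate 4. Of the 2 mitochondrial genes of ATP synthase, mt-Atp6, whose product forms part of the proton path, stood at 170.0, 153 and 121.1 CPM against 81.4, 72.0, 121.4, 92.5 and 68.1 CPM. Here too the lowest aOX40 library lay just under IgG replicate 4.

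**Figure D1:**
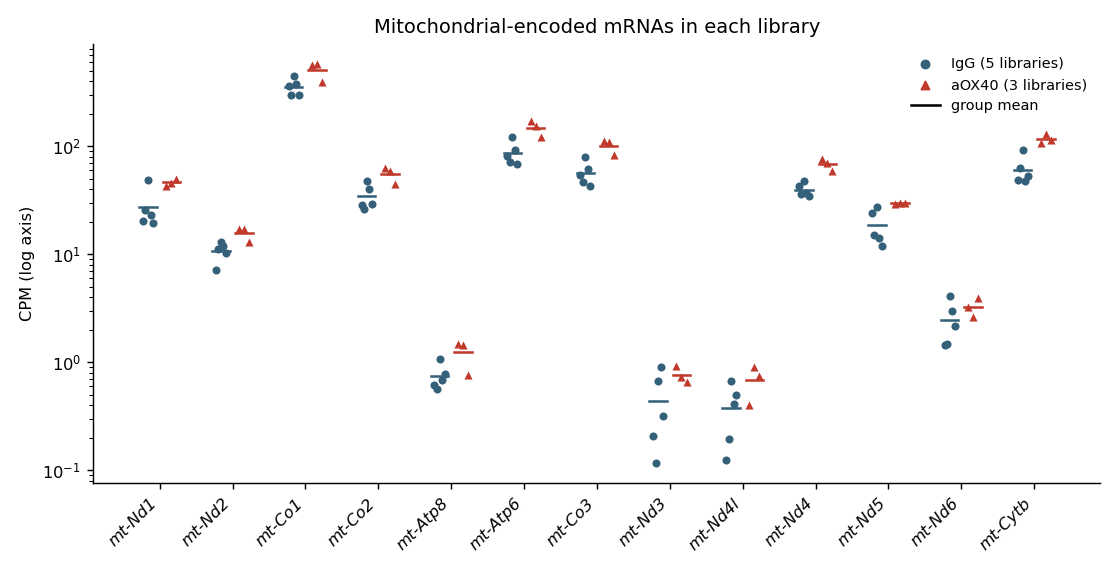
CPM on a log axis for the 13 mitochondrial-encoded messenger RNAs, in order along the mitochondrial genome; circles are the 5 IgG libraries, triangles the 3 aOX40 libraries and lines the group means. The aOX40 mean lies above the IgG mean for each gene, and the groups are apart for mt-Nd2, mt-Co3, mt-Nd4, mt-Nd5 and mt-Cytb.

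In 5 of the 13 mitochondrial genes the groups did not overlap, all with aOX40 higher, against 8.22% of all genes tested. Most of the 13 are cut from shared long transcripts, so they are not 13 independent results and the count is a description. IgG replicate 4 was the highest IgG library in 12 of the 13, and without it 9 of the 13 did not overlap, against 10.4% of all genes. That library was picked from these same values, and leaving it out could not lower the count. The share of all genes is therefore not a like measure, and the count is not a separate result. With CPM by total counts alone 9 of the 13 did not overlap, against 14.0%. The mitochondrial ribosomal RNAs come from the same genome and had log2 fold changes below 0. mt-Rnr1 was at 69.3 ± 31.5 CPM in aOX40, against 117 ± 31.2 CPM in IgG (adjusted p = 0.264 in edgeR for a log2 fold change of -0.76), and mt-Rnr2 was at 630.2 ± 248 CPM and 786 ± 114 CPM (-0.32, adjusted p = 0.590). As a share of all counts the 2 ribosomal RNAs averaged 0.0788% in aOX40 and 0.0835% in IgG, and the groups overlapped. The ratio of mitochondrial messenger to ribosomal counts was 1.17, 2.16 and 1.76 in aOX40 and 0.642, 0.828, 1.08, 0.677 and 0.685 in IgG, without overlap. This ratio carries the separation of the messengers and is not a separate result. How ribosomal RNA was handled when the libraries were made is not stated here, and its part in these values was not tested. For mt-Nd3, mt-Nd4l, mt-Co1, mt-Co2, mt-Co3 and mt-Atp6 the gene models hold a near-identical copy elsewhere in the genome, matching at 95% identity or more along 50% or more of the gene, so reads could have been split between the copies.

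The balance between the genomes can be read within a library, where no scaling between libraries enters. Counts of the 13 mitochondrial genes divided by those of the 82 nuclear genes gave 0.532, 0.637 and 0.547 in aOX40 and 0.380, 0.328, 0.440, 0.304 and 0.289 in IgG. Each aOX40 library lay above each IgG library. In complex IV the ratio was 1.29, 2.19 and 1.63 in aOX40 and 0.955, 0.758, 1.03, 0.695 and 0.745 in IgG, and the group means differed 2.03-fold. In complex III, where mt-Cytb was set against 9 nuclear genes, it was 0.457, 0.664 and 0.678 against 0.282, 0.319, 0.391, 0.165 and 0.242. The groups were apart in both of these complexes. The ratio in complex III carries the separation of mt-Cytb. All the ratios reuse the counts behind the levels of the single genes, so they are not separate results. In complex I the ratio was 0.399 ± 0.0667 (SD, n = 3) in aOX40 and 0.259 ± 0.0703 (SD, n = 5) in IgG, and in complex V 0.261 ± 0.0291 and 0.179 ± 0.0368, with IgG replicate 4 inside the aOX40 range in both.

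**Figure D2:**
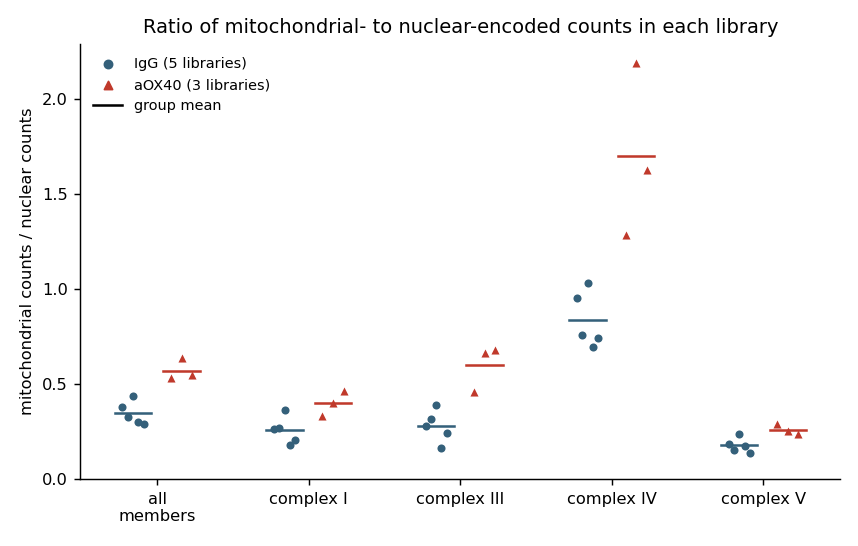
Summed counts of mitochondrial-encoded members divided by those of nuclear-encoded members in each library, over all members and for the 4 complexes built from both genomes; circles are IgG, triangles aOX40 and lines the group means. The groups are apart over all members, in complex III and in complex IV, where aOX40 spans 1.29 to 2.19 and IgG 0.695 to 1.03.

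The nuclear genes spread widely around 0, with 47 log2 fold changes above and 35 below 0, where 52.1% of all genes lay above 0. By complex, the median was 0.23 for 38 genes of complex I, 0.10 for 4 of complex II, -0.14 for 9 of complex III, -0.44 for 13 of complex IV and 0.09 for 17 of complex V. The differences between these medians were not tested. In 4 nuclear genes the groups did not overlap with aOX40 higher (Atp5a1, Atp5b, Atp5o and Sdhb) and in 3 with aOX40 lower (Cycs, Cox5b and Cox7c), or 7 of 82 where 8.22% of all genes stood apart with aOX40 higher and 7.75% with aOX40 lower.

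**Figure D3:**
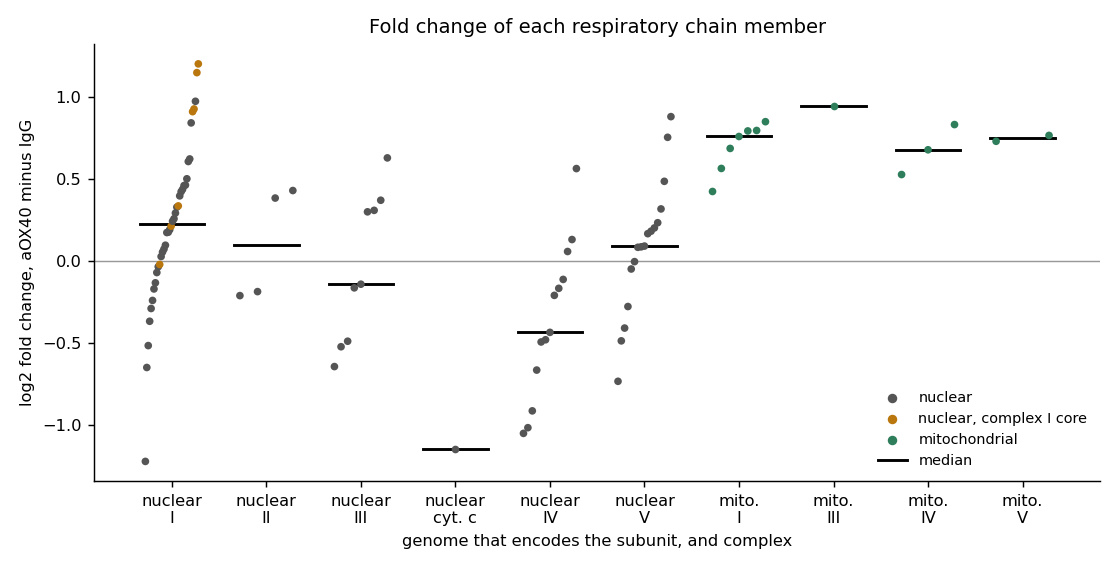
Log2 fold change (aOX40 minus IgG, edgeR) of each of the 95 members by the genome that encodes it and by complex; lines are medians and the 7 core subunits of complex I are in orange. All 13 mitochondrial members lie above 0, and the nuclear members of complex IV have a median of -0.44.

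Cytochrome c, the small electron carrier between complexes III and IV, is also known as a trigger of apoptosis when it leaves the mitochondrion. Its gene Cycs (chromosome 6, 50562563 to 50566538 on mm10) stood at 23.0, 14.99 and 16.6 CPM in aOX40 and at 35.9, 36.4, 49.4, 44.8 and 35.1 CPM in IgG. All aOX40 libraries lay below all IgG libraries, and Cycs fell by 1.15 on the log2 scale (SE 0.23, adjusted p = 0.0401, edgeR). It was called in 9 of 19 alternative analyses and was below 0 in each, between -1.39 and -0.86. Cyc1 encodes cytochrome c1, the subunit of complex III that hands the electron to cytochrome c. It stood at 27.3, 27.2 and 19.96 CPM in aOX40 and at 3.63, 21.98, 20.7, 20.3 and 13.7 CPM in IgG, and the log2 fold change of 0.63 (SE 0.48) did not pass. The ratio of Cyc1 to Cycs counts was 1.19 to 1.81 in aOX40 and 0.101 to 0.604 in IgG, and the ratio of mt-Cytb to Cycs counts was 4.66 to 8.66 and 1.07 to 1.87. Neither ratio overlapped between the groups. For mt-Cytb to Cycs this was fixed in advance, as both genes were already apart in opposite directions. The ratio of Cyc1 to Cycs also carries the separation of Cycs, so neither ratio is a separate result.

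The nuclear genes of complex IV encode small subunits around the mitochondrial core, and 10 of the 13 members placed there, 1 of them the pseudogene Cox6c2, lay below 0. Cox5b (chromosome 1, 36691449 to 36693681) stood at 29.3, 17.7 and 18.1 CPM in aOX40 and at 45.4, 35.7, 50.1, 48.4 and 40.3 CPM in IgG (adjusted p = 0.0620 in edgeR for a log2 fold change of -1.02 with SE 0.24). Cox7c stood at 5.70, 4.88 and 3.69 CPM against 9.75, 8.01, 9.88, 9.67 and 7.60 CPM (adjusted p = 0.153 for -0.92 with SE 0.30). Both were lower in every aOX40 library than in any IgG library, and neither passed in this fit. Both have a pseudogene with a row of its own in the table, and with these rows added Cox5b came to 25.9 to 43.6 CPM against 50.7 to 69.9 CPM and Cox7c to 5.33 to 8.52 CPM against 9.90 to 13.1 CPM, again without overlap. Cox8a, the complex IV member with the highest level per length, stood at 145, 69.2 and 66.1 CPM in aOX40 and at 133, 129.4, 152, 195 and 132 CPM in IgG. Here aOX40 replicate 1 lay within the IgG range, and replicates 2 and 3 lay below it. Ndufa4, named for complex I but known as a subunit of complex IV, was at 6.76 ± 1.12 CPM against 4.57 ± 1.63 CPM, the highest log2 fold change of the 13 (0.56, SE 0.41). The lowest was that of Cox6c2, an annotated processed pseudogene nearly identical to Cox6c, at 0.130 ± 0.0652 CPM against 0.271 ± 0.14 CPM (-1.05, SE 0.83).

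That split within aOX40 ran through the nuclear set. aOX40 replicate 1 was the highest of the 3 aOX40 libraries in 13 of 13 nuclear genes of complex IV and in 62 of 82 nuclear genes (75.6%), against 38.0% of all genes tested. Without it, 8 of the 13 stood lower in aOX40 without overlap, against 13.5% of all genes, and 22 of the 82. In the other direction 8 of the 82 stood higher without overlap, against 15.3% of all genes. Replicate 1 was picked from these same values, so the shares of all genes are not a like measure. These counts are not a separate result. In IgG, replicate 5 was the highest library in 50 of 82 nuclear genes (61.0%), against 21.8% of all genes, but in 1 of the 13 mitochondrial genes. Summed per kilobase of exon, the nuclear genes of complex IV came to 623, 353 and 328 CPM per kb in aOX40 and 511, 537, 608, 765 and 545 in IgG, with means of 434 ± 164 (SD, n = 3) and 593 ± 103 (SD, n = 5), so that the difference between the means was smaller than the SD within aOX40.

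**Figure D4:**
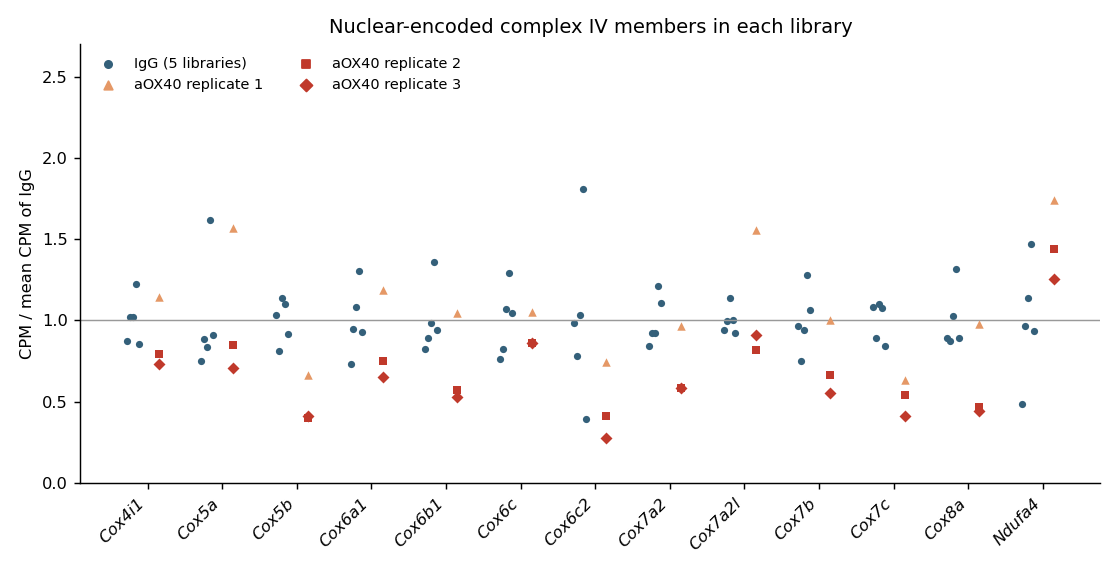
CPM of the 13 nuclear-encoded complex IV members in each library, divided by the gene's IgG mean; circles are IgG libraries and the other symbols the 3 aOX40 libraries. aOX40 replicate 1 is the highest aOX40 library for each gene, and for Cox5b and Cox7c all aOX40 libraries lie below all IgG libraries.

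In complex I the 7 core subunits, which carry the flavin and iron-sulfur centers and have bacterial counterparts, had a median log2 fold change of 0.91, and 6 of 7 were above 0. This median was 0.59 without aOX40 replicate 1, and it lay between 0.59 and 0.86 with any 1 library left out. The 28 accessory subunits had a median of 0.18, with 18 above 0. Ndufv1, which binds NADH, stood at 19.6, 16.03 and 8.46 CPM in aOX40 and at 6.75, 3.63, 7.72, 4.16 and 10.9 CPM in IgG (1.15 on the log2 scale, SE 0.43, adjusted p = 0.197 in edgeR). Ndufs1, the largest iron-sulfur subunit, stood at 6.94, 17.0 and 19.4 CPM against 9.46, 8.51, 8.04, 5.77 and 6.16 CPM (0.93, SE 0.37). In each of these genes 1 aOX40 library lay within the IgG range, replicate 1 for Ndufs1 and replicate 3 for Ndufv1. Ndufs3, which has a near-identical copy as Ndufb11, Ndufb4c, Ndufs6b and Cox6c2 do, was at 7.86 ± 2.89 CPM against 4.18 ± 1.595 CPM. Ndufs7, Ndufs8 and Ndufv2 had log2 fold changes of 0.34, 0.21 and -0.02, so values within the core set were uneven. None of the 38 nuclear genes of complex I passed, and in none were the groups apart. Counts of the 7 core genes over the 28 accessory genes gave 0.302, 0.411 and 0.477 in aOX40 and 0.249, 0.262, 0.252, 0.209 and 0.333 in IgG, where aOX40 replicate 1 lay below IgG replicate 6. Ndufa2, an accessory subunit with the highest level per length in complex I, was at 28.5 ± 7.38 CPM against 28.01 ± 5.49 CPM, and Ndufa5 had at most 0.261 CPM.

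In complex II, which also serves in the TCA cycle, the catalytic pair lay above 0 and the membrane anchors below. Sdhb, the iron-sulfur subunit, stood at 44.4, 43.0 and 33.4 CPM in aOX40 and at 30.9, 30.4, 29.9, 30.4 and 32.6 CPM in IgG, without overlap (log2 fold change 0.38, SE 0.17, adjusted p = 0.279, edgeR). The flavin subunit Sdha was at 42.2 ± 14.2 CPM against 31.3 ± 7.57 CPM. Sdhd, an anchor that binds heme and ubiquinone, had the highest level per length in complex II. It was at 190.0 to 211 CPM in aOX40, against 205 to 266 CPM in IgG. Its log2 fold change of -0.21 turned to 0.09 when libraries were scaled by total counts alone.

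In complex III the 4 larger subunits, Cyc1, the Rieske iron-sulfur protein Uqcrfs1 and the matrix-facing Uqcrc1 and Uqcrc2, had log2 fold changes of 0.63, -0.14, 0.37 and 0.30. Of the 5 small subunits 4 were below 0, with a median of -0.49. Uqcrq stood at 53.8, 29.8 and 28.7 CPM in aOX40 and at 50.2, 45.3, 58.8, 87.0 and 51.5 CPM in IgG (-0.65, SE 0.30, adjusted p = 0.305, edgeR), again with aOX40 replicate 1 within the IgG range. None of the 9 nuclear genes of complex III passed, and in none were the groups apart.

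ATP synthase has a catalytic head in the matrix, a rotating ring in the membrane and a peripheral stalk that holds them together. The head subunits that form the catalytic sites stood higher in every aOX40 library than in any IgG library. Atp5a1 (alpha) stood at 67.8, 96.1 and 77.9 CPM in aOX40 and at 48.6, 51.7, 39.8, 33.1 and 45.6 CPM in IgG (adjusted p = 0.0609 in edgeR for a log2 fold change of 0.88 with SE 0.20). Atp5b (beta) stood at 142, 206 and 177 CPM against 113, 137, 134, 112 and 128 CPM (adjusted p = 0.174 for 0.49 with SE 0.17). Atp5o, a subunit of the peripheral stalk, stood at 8.44, 8.01 and 7.41 CPM against 3.00, 6.58, 5.51, 5.11 and 3.36 CPM (adjusted p = 0.327 for 0.76 with SE 0.36). The 5 small membrane subunits had a median of -0.28, and Atp5md among them was at 14.4 ± 5.14 CPM against 24.0 ± 4.65 CPM (adjusted p = 0.221 for -0.74 with SE 0.29). The ratio of Atp5a1 to Cox5b counts was 2.32, 5.42 and 4.29 in aOX40 and 1.07, 1.45, 0.795, 0.684 and 1.13 in IgG. Atp5a1 was higher and Cox5b lower in every aOX40 library than in any IgG library, so this ratio could not overlap and adds no further result.

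**Figure D5:**
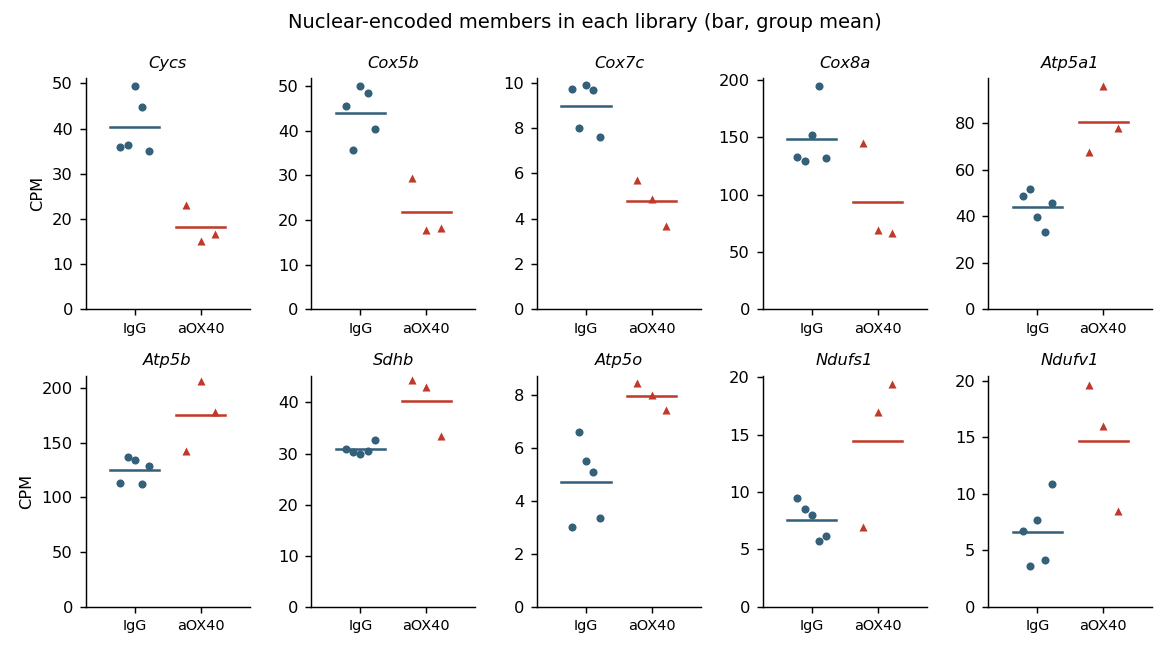
CPM of 10 nuclear-encoded members in each library; circles are IgG, triangles aOX40 and lines the group means. Cycs, Cox5b and Cox7c lie lower and Atp5a1, Atp5b, Sdhb and Atp5o higher in every aOX40 library than in any IgG library, and in Cox8a, Ndufs1 and Ndufv1 the groups overlap.

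Several complex IV subunits exist in a general form and in a form best known from muscle, heart, lung or testis. The general forms were the ones found here in both groups. Cox4i1 was at 93.6 ± 23.3 CPM in aOX40, against 105 ± 15.5 CPM in IgG, while Cox4i2, the lung form, reached at most 0.390 CPM. Cox6a1 was at 53.2 ± 17.6 and 61.5 ± 13.001 CPM and the muscle form Cox6a2 at most 0.0965 CPM. Cox6b1 was at 39.2 ± 15.6 and 54.8 ± 11.4 CPM and the testis form Cox6b2 at most 0.343 CPM. Cox7a2 was at 24.8 ± 7.71 and 35.0 ± 5.34 CPM and the muscle form Cox7a1 at most 0.125 CPM, while Cox7a2l, known from supercomplexes, was at 23.8 ± 8.75 and 21.7 ± 1.82 CPM. Cox8b was not analysed here. Of the 3 genes for the ring subunit of ATP synthase, Atp5g3 was highest per length, at 5.62 CPM per kb in aOX40 and 5.30 CPM per kb in IgG, ahead of Atp5g1 at 0.846 and 0.679 and Atp5g2 at 0.0904 and 0.0783. Of these genes, those in the test did not pass, and Cox4i2, Cox6a2, Cox6b2 and Cox7a1 were not members.

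Promoter letters were not used to choose the nuclear members. NRF1, the ETS factor GABPA and YY1 are known as activators of nuclear respiratory genes, and their motifs were searched on both strands from 250 bases before to 50 bases after each start site (RefSeq, GRCm38.p6; 65 of 82 nuclear genes had an entry, with 70 promoters). The NRF1 motif, GCGCA followed by any base and then GCGC, was in 18 of these 70 promoters (25.7%) against 4.60% of all 32851 promoters of the table. The ETS motif CCGGAAG was in 17 (24.3%) against 8.86%, and the YY1 motif AANATGGC in 17 (24.3%) against 6.05%. Most of the 70 promoters thus lacked each motif, and no test of these shares was run. A match describes the letters only. Promoters are shown for 5 of the 7 nuclear genes whose groups were apart, Cycs and Cox5b with aOX40 lower and Atp5b, Sdhb and Atp5o with aOX40 higher, with any match in capitals. The first line is chr6:50566520-50566819 on the minus strand, the second chr1:36691237-36691536 on the plus strand, the third chr10:128083057-128083356 on the plus strand, the fourth chr4:140961021-140961320 on the plus strand and the fifth chr16:91931581-91931880 on the minus strand.
Cycs: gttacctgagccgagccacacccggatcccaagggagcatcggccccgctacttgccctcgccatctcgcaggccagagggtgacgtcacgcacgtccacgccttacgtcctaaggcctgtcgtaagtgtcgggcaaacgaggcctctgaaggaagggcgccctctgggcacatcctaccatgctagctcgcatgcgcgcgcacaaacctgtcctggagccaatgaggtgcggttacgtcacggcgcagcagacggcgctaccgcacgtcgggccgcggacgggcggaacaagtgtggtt
Cox5b: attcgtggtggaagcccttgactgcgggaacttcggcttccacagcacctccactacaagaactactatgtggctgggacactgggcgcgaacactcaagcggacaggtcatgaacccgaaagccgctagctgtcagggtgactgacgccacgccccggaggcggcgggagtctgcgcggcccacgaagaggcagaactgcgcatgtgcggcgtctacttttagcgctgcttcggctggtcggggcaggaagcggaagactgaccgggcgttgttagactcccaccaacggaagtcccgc
Atp5b: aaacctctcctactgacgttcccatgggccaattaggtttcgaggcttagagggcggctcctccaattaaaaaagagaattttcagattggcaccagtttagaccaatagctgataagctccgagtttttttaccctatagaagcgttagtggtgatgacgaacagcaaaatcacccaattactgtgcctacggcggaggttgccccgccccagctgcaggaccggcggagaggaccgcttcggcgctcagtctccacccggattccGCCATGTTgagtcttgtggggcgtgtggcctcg
Sdhb: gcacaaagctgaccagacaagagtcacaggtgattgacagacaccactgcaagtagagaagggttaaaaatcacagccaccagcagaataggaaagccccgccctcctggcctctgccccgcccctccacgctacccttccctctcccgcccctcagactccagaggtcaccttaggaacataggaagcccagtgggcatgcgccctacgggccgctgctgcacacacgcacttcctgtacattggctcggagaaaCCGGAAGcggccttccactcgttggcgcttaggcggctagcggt
Atp5o: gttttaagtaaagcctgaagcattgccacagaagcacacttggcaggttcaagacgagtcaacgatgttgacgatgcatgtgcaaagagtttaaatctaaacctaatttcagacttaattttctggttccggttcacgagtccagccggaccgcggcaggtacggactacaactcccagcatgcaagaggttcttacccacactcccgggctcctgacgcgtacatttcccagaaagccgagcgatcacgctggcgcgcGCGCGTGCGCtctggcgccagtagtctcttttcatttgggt
The capitals mark a YY1 match in Atp5b, an ETS match in Sdhb and an NRF1 match in Atp5o, each lying after the start site. The promoters of Cycs and Cox5b held no exact match in this window. That of Cox7c, which is not printed, held none either, and that of Atp5a1 is not shown. Only exact letters were searched, and a link between a motif and the direction of change was not tested.

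Transcript length went weakly with the fold change in the nuclear set. Over the 80 nuclear genes with a gene model, the log2 fold change correlated with log2 exon length at r = 0.26 (Spearman's rho 0.28), as a description across genes that share libraries, against r = 0.03 over 12960 genes. The 42 genes with at least 1500 bases of exon had a median of 0.24, the 27 genes of 700 to 1500 bases a median of -0.04 and the 11 genes under 700 bases a median of 0.03, so the medians did not climb steadily with length. The medians of all genes in these length ranges were 0.10, 0.01 and -0.27. Among the 13 mitochondrial genes the correlation was -0.13. With a correction for transcript length the core subunits of complex I had a median of 0.69 in place of 0.91.

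The other nuclear genes that build and run mitochondria were followed as lists. Of 20 measured assembly factors of complex IV, 12 lay above 0, with a median of 0.26. Among them 1 gene fell and 0 rose, where 1.59% of all genes tested fell and 0.821% rose. It was Cox17, the copper chaperone that feeds the copper centers of complex IV, at 124 ± 44.9 CPM in aOX40, against 316 ± 47.4 CPM in IgG (adjusted p = 0.0366 in edgeR for a log2 fold change of -1.35 with SE 0.25), and it was called in 11 of 19 alternative analyses. Among 16 assembly factors of complex I, 5 of complex III and 4 of ATP synthase 0 passed, and the list medians were 0.27, 0.11 and 0.11. Of 4 for complex II, Sdhaf3 had 0 counts in all 5 IgG libraries and 21, 39 and 17 counts in aOX40. It entered the test only through the aOX40 libraries, so its call is not read as a result, and the other 3 genes did not pass. Of 15 genes of mitochondrial transcription and RNA processing, 10 of mitochondrial DNA maintenance and 9 regulators of biogenesis 0 passed, with medians of 0.24, -0.17 and 0.32. Ppard in the last list was at 12.1 ± 5.53 CPM against 36.3 ± 7.94 CPM (adjusted p = 0.0630 for -1.58 with SE 0.37).

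Channels, carriers, import proteins and chaperones had 17 of 20 genes above 0 and a median of 0.74, with 0 passing. In 8 of them the groups were apart with aOX40 higher, against 8.22% of all genes, and in 2 with aOX40 lower, against 7.75%. This list, like the others, was chosen with earlier results of these data known, so these counts are a description only. The outer membrane channel Vdac3 was at 26.9 ± 8.24 CPM against 9.23 ± 3.94 CPM (1.54, adjusted p = 0.0759, edgeR) and the import pore gene Tomm40 at 5.65 ± 2.28 CPM against 1.77 ± 0.385 CPM. The phosphate carrier Slc25a3 was at 247 ± 45.04 CPM against 432 ± 49.0 CPM (-0.80, adjusted p = 0.0578) and the import receptor Tomm20 at 67.9 ± 18.8 CPM against 158 ± 48.7 CPM. Of 15 TCA cycle genes 12 were above 0, with Idh3a counted among them. Idh3a, a subunit of isocitrate dehydrogenase, had 0 counts in all 5 IgG libraries and 75, 144 and 72 counts in aOX40. Like Sdhaf3 it entered the test only through aOX40, and its call is not read as a result. The other 14 TCA cycle genes did not pass. Citrate synthase Cs was at 37.6 ± 6.28 CPM against 23.3 ± 3.87 CPM and Pdhb, of pyruvate dehydrogenase, at 15.2 ± 2.19 CPM against 35.8 ± 17.96 CPM. Of 75 mitochondrial ribosomal proteins 59 were above 0, with a median of 0.38, and 1 fell, where 1.59% of all genes did. It was Mrpl57, at 6.71 ± 1.53 CPM against 24.7 ± 6.78 CPM (adjusted p = 0.0292 for -1.88 with SE 0.32). Mrpl57 was called in 14 of 19 alternative analyses. Of 87 cytosolic ribosomal proteins 63 were below 0, with a median of -0.25, and 0 passed. The genes of these lists were named for the smallest adjusted p in each list.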

How the data were processed

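Total RNA (column kit) from 8 libraries was sequenced, 3 of group aOX40 and 5 of group IgG. Reads were aligned to mm10, and the tools named are STAR 2.6.0 and featureCounts 1.5.1 of Subread, per the submitters' processing notes. The sources used here do not state the strand setting or the step that made values fractional. The deposited values are estimated counts per gene symbol: 63.4% were whole within 0.01, against 39.2% of the nuclear members' values and 51.9% of the mitochondrial ones, and 62 of 82 nuclear members had at least 1 value that was not whole. Reads shared with pseudogene copies may be split, and 12 symbols with -ps were left out.

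Counts were rounded and tested with edgeR 4.0.16 (R 4.3.3; filterByExpr, TMM, glmQLFit and glmQLFTest, Benjamini-Hochberg over 13278 genes, threshold 0.05), with no covariate. Checked on simulated data over 12476 genes for this comparison, it recovered 26% of genes changed 2-fold, 82% at 4-fold and 100% at 8-fold and at 16-fold, and 3.14% of calls were false. Only genes well above the count minimum were changed in the simulation. Recovery of members at lower levels, such as Cox7c and Atp5o, was not checked. Alternatives were other scaling, filters, DESeq2 1.42.0, limma 3.58.1 voom, a replicate block and each library left out; the legacy FALSE setting and corrections for length and GC content were added after seeing the data. Lengths and positions came from GENCODE M21, for 93 of 95 members, and near copies from BLAST+ 2.17.0. Depth was 52682234 to 73480508 counts, which limits genes near the count minimum most.

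Named genes were every mitochondrial member, every called nuclear member, per complex those with the highest and lowest log2 fold change and the highest level per length, the isoform genes, and up to 4 genes per other list by adjusted p. Others were named after their values were seen, for groups that did not overlap or for their role. The members and lists were chosen with earlier results of these data known. One member is not reported here by name.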

Additional observations from a re-analysis of the deposited data

Results flagged for a closer look

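In 3 of 85 values tested, 1 IgG library stood apart from the other 4 by Dixon's criterion, which chance meets in about 1 of 20 groups. mt-Nd1 was at 48.3 CPM in IgG replicate 4 and at 19.6 to 25.7 CPM in the others. The summed level of the mitochondrial genes of complex I was 124.9 CPM per kb in IgG replicate 4 and 68.9 to 79.8 CPM per kb in the others. Ndufa2 was at 37.6 CPM in IgG replicate 5 and at 24.4 to 27.6 CPM in the others.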

How the results depend on the processing

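The count of genes called over the whole table moved most. Higher and lower calls were 109 and 211 as reported, 273 and 111 with total counts alone, 63 and 109 with no filter, 264 and 443 with at least 10 counts in all 8 libraries, 501 and 932 with DESeq2, 335 and 389 with voom and 351 and 399 with legacy FALSE. With the replicate block there were 0 and 0 (edgeR; 1769 genes at an unadjusted p under 0.05, and 1433 calls by DESeq2 without a block). The labels share only replicate numbers 2 and 3 between groups, and same-numbered libraries correlated at 0.0224 and 0.0469, so the numbers were not taken as pairs. Leaving out 1 library gave 0 to 74 higher and 0 to 113 lower calls, with 0 calls without aOX40 replicate 2 (1604 genes at an unadjusted p under 0.05) and without aOX40 replicate 3 (1905).

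Higher and lower nuclear calls were 0 and 1 as reported, 1 and 0 with total counts, 0 and 0 with no filter or the block, 1 and 2 with the all-library filter, voom and legacy FALSE, 2 and 3 with DESeq2 and 0 and 2 with length correction. Left-out libraries gave 0 higher and 0 to 2 lower. Mitochondrial higher calls were 4 with total counts and DESeq2, 3 with the all-library filter, 2 with voom and legacy FALSE and 0 to 2 with a library left out. In the other lists 2 genes were higher (Idh3a and Sdhaf3, tested only through aOX40) and 2 lower in the main analysis. Higher calls were 1 with DESeq2's size factors and length correction, 0 with no filter or the block, 6 with the all-library filter, 7 with DESeq2 and 5 with voom and legacy FALSE. Lower calls were 5, 8, 5 and 5 with the last 4 of these and 0 with the block. Left-out libraries gave 0 higher and 0 to 2 lower.

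With total counts the medians were 0.38 for nuclear members and 1.20 for complex I core subunits, and the log2 ratios of summed levels 0.17 for nuclear complex II and 0.55 for complex V. The core median was 0.69 with length correction and 0.59 to 0.86 with a library left out. Complex IV ranged from -0.71 to -0.26, the mitochondrial median from 0.64 to 0.90 and the nuclear from -0.09 to 0.24.

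Signs turned for uncalled genes near 0, and the cause was not tested. With total counts Sdhd was 0.094, Uqcrfs1 0.15, Cox4i1 0.12 and Cox6a1 0.074. With the block Ndufa2 was -0.023, Uqcrfs1 0.072, Cox7a2l -0.17 and Atp5g3 -0.18. With length correction Cox7a2l was -0.038 and Atp5g3 -0.15, with GC correction Ndufa2 -0.0995 and Atp5g3 -0.016, and with upper quartile factors Ndufa2 -0.019. With 1 library left out, Ndufa2 lay between -0.19 and 0.17, Uqcrfs1 between -0.32 and 0.012, Cox7a2l between -0.21 and 0.31, Atp5g2 between -0.12 and 0.74 and Atp5g3 between -0.10 and 0.29.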
